A study of Homo sapiens with 12 samples.

Results

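The transcripts of 7 transcription factor genes known for driving epithelial-mesenchymal transition (EMT) were followed in 12 expression arrays of lung cancer cells. The genes were ZEB1, ZEB2, SNAI1, SNAI2, TWIST1, FOXC2 and TCF4, 7 of the 11963 genes that the array's annotation names singly. They were chosen by name, with earlier results of these data known. Every probe set annotated to exactly 1 of these symbols was taken, which gave 15 of 22277 probe sets. ZEB1 had 3 probe sets, TCF4 had 7, and each other gene had 1.

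The cells were HCC827, an established human non-small cell lung cancer line whose EGFR carries an activating mutation, and lines derived from it, in 4 groups of 3 arrays. ERC4 is an erlotinib-resistant line and was compared with parental HCC827 cells, both grown in RPMI with 5% FBS and antibiotics. Esh9-1 is HCC827 transduced with a lentivirus coding for an shRNA against EGFR. It was compared with HCC827NT, which received a non-target shRNA, and both had 5 ug/ml puromycin added to the same medium. The labels do not say whether ERC4 and Esh9-1 are single clones, and Esh9-1 represents 1 shRNA. A resistance entry in the labels calls all 12 samples resistant to EGFR inhibitors, parental cells included, and groups were therefore taken from the sample titles. Nothing in the labels says that replicates were separate cultures. The p-values therefore measure only the spread between these arrays, which may be technical.

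EMT is a programme in which epithelial cells lose cell-cell adhesion and gain migratory, mesenchymal properties. ZEB1 and ZEB2 are zinc finger and homeodomain proteins, and SNAI1 and SNAI2 are zinc finger proteins, all of which bind E-box sequences and repress epithelial genes such as CDH1, the gene of E-cadherin. TWIST1 and TCF4 are basic helix-loop-helix (bHLH) proteins, and FOXC2 is a forkhead protein. TCF4 here is the E protein also known as E2-2, not the Wnt effector TCF7L2 that shares the alias.

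Levels are given as log2 of the deposited intensity plus 1, and changes as differences of group means on that scale with limma's standard error. Median log2 levels of the arrays were 5.67 to 5.70 in ERC4, 5.74 to 5.75 in parental, 7.17 in Esh9-1 and 7.15 to 7.17 in HCC827NT cells. The parental and ERC4 arrays thus lie on another scale than the HCC827NT and Esh9-1 arrays, and levels are compared only within each set of 6. Replicate arrays correlated at 0.992 to 0.998. EGFR transcript, the target of the shRNA, had a log2 level of 12.25 ± 0.09 in Esh9-1 and 13.55 ± 0.10 in HCC827NT cells (SD, n = 3 each; probe set 201983_s_at), a fall of 1.30. Larger changes were seen on 201984_s_at (-2.16), 210984_x_at (-2.70) and 211607_x_at (-2.72). The dim 211550_at was not called (0.06, adjusted p = 0.60), and 211551_at was called higher (0.18, adjusted p = 0.045). All 12 markers of lung epithelial cells lay above the array median in ERC4, parental and HCC827NT cells. In Esh9-1 cells 10 of 12 did, the exceptions being CDH1 and MUC1.

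ZEB1 rose in both derived lines, in each by more than 2-fold on 2 or more of its probe sets. ZEB2, SNAI2 and TCF4 rose by at least 2-fold in Esh9-1 cells (TCF4 on 5 of its 7 probe sets) and were not called higher in ERC4 cells. In ERC4 against parental cells, 6 of the 15 probe sets passed an adjusted p of 0.05, against 48.5% of all 22215 probe sets tested. Of these 6, the 3 that rose all belong to ZEB1 (23.6% of all probe sets were called higher). The 3 that fell belong to SNAI1, FOXC2 and TCF4 (24.9% were called lower). In Esh9-1 against HCC827NT cells, 12 of 15 passed, against 50.3% of all probe sets, and all 12 were higher (24.5% were called higher and 25.9% lower). They belong to 5 genes, and 10 of them, in 4 genes, rose at least 2-fold, as did 4.55% of all probe sets. In ERC4 2 of 15 rose at least 2-fold, against 3.85% of all. None of the 15 fell 2-fold, against 1.52% of all in ERC4 and 4.25% in Esh9-1. The median change of the 15 was 1.50 in Esh9-1, beside -0.03 over all probe sets, and -0.11 in ERC4, beside -0.06. The probe sets of a gene share a transcript, so the 7 of TCF4 and 3 of ZEB1 are not separate observations. As the genes were chosen with earlier results of these data known, these counts describe them and are no test of enrichment. In these bulk samples, more cells that express a gene and more RNA per cell cannot be told apart.

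**Figure D1:**
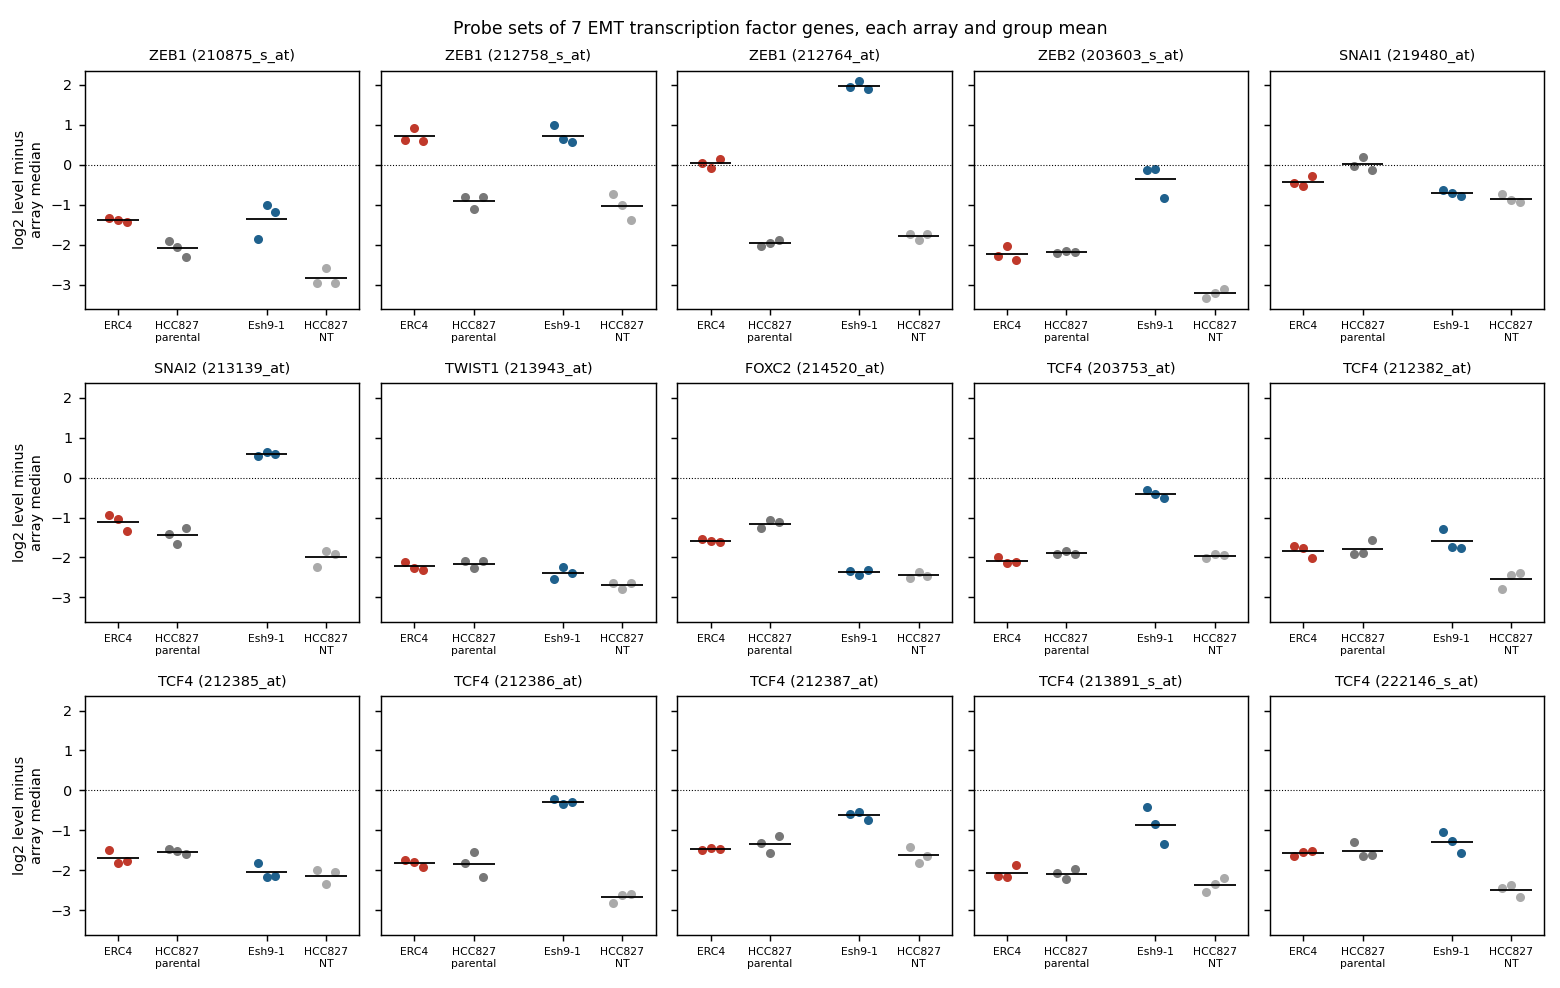
Log2 level minus the array median (vertical axis, log2 units) of each of the 15 probe sets, with a point per array and a line at the mean of 3 arrays. ZEB1 lies higher in ERC4 than in parental cells, and ZEB1, ZEB2, SNAI2 and most TCF4 probe sets lie higher in Esh9-1 than in HCC827NT cells.

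ZEB1, a repressor of CDH1 and other epithelial genes, rose on all 3 of its probe sets in both comparisons. Probe set 212764_at had log2 levels of 5.75, 5.58 and 5.84 in ERC4 arrays, against 3.72, 3.78 and 3.85 in parental arrays. The groups were separate, and the mean moved to the 50.6th percentile of all probe sets in ERC4, against the 8.14th in parental cells. The change was 1.94 ± 0.09, or 3.84-fold (adjusted p = 3.5e-07). In Esh9-1 arrays the same probe set had 9.13, 9.26 and 9.07, against 5.41, 5.28 and 5.45 in HCC827NT arrays. Every Esh9-1 array exceeded every HCC827NT array by more than 3 log2 units, and the change of 3.77 ± 0.07, or 13.7-fold (adjusted p = 1.9e-09), was the largest among the 15 probe sets.

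ZEB1 probe set 212758_s_at gave changes of more similar size. Its log2 levels were 6.32, 6.58 and 6.30 in ERC4 arrays, against 4.95, 4.65 and 4.94 in parental arrays, a rise of 1.55 ± 0.11 or 2.94-fold (adjusted p = 5.5e-06). They were 8.16, 7.81 and 7.72 in Esh9-1 arrays, against 6.42, 6.16 and 5.79 in HCC827NT arrays, a rise of 1.77 ± 0.16 or 3.42-fold (adjusted p = 1.7e-05). Neither comparison had overlapping groups. The third probe set, 210875_s_at, had 4.38, 4.28 and 4.25 in ERC4, against 3.85, 3.70 and 3.44 in parental arrays. It had 5.32, 6.16 and 5.98 in Esh9-1, against 4.18, 4.58 and 4.22 in HCC827NT arrays. These levels were separate between groups but stayed below the array medians throughout, and the changes were 0.64 ± 0.11 (adjusted p = 0.0010) and 1.50 ± 0.20 (adjusted p = 0.00021).

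ZEB2, the paralogue of ZEB1, lay below the array medians in all groups and rose in Esh9-1 cells. Its probe set 203603_s_at had log2 levels of 3.42, 3.64 and 3.31 in ERC4 arrays, against 3.55, 3.59 and 3.56 in parental arrays. Those groups overlapped (-0.11 ± 0.09, adjusted p = 0.37), and both lay near the 4th percentile of their arrays, at 3.93 in ERC4 and 3.85 in parental cells. In Esh9-1 arrays the levels were 7.04, 7.07 and 6.34, against 3.82, 3.95 and 4.07 in HCC827NT arrays. The Esh9-1 mean reached the 44.8th percentile, against the 1.56th in HCC827NT cells, and the rise was 2.87 ± 0.18 or 7.33-fold (adjusted p = 1.4e-06). Esh9-1 replicate 3 was the lowest of its group and still lay above all HCC827NT arrays.

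SNAI2, which encodes the repressor SLUG, rose in Esh9-1 cells and was not called in ERC4 cells. Probe set 213139_at of SNAI2 had log2 levels of 7.71, 7.81 and 7.76 in Esh9-1 arrays, against 4.91, 5.34 and 5.27 in HCC827NT arrays. The 3 Esh9-1 arrays were tightly grouped above their array medians and the rise was 2.59 ± 0.11 or 6.01-fold (adjusted p = 1.1e-07). In ERC4 arrays the levels were 4.77, 4.63 and 4.35, against 4.33, 4.10 and 4.48 in parental arrays. These overlapped, with a change of 0.28 ± 0.13 that did not pass (adjusted p = 0.098). Quantile normalization of the 6 arrays made it pass (0.39, adjusted p = 0.033), as did leaving out ERC4 replicate 3 (0.40, adjusted p = 0.034).

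SNAI1, the paralogue that encodes the repressor SNAIL, did not pass in Esh9-1 cells and fell in ERC4 cells. Its probe set 219480_at had log2 levels of 5.24, 5.14 and 5.42 in ERC4 arrays, against 5.72, 5.94 and 5.61 in parental arrays. ERC4 lay below parental cells without overlap, at -0.49 ± 0.11 (adjusted p = 0.0044). The levels were 6.54, 6.47 and 6.38 in Esh9-1 arrays, against 6.41, 6.29 and 6.24 in HCC827NT arrays. These overlapped, at 0.15 ± 0.07 (adjusted p = 0.12).

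TWIST1, a bHLH factor that dimerizes with E proteins, lay well below the array medians in all groups. Probe set 213943_at had log2 levels of 4.64, 4.92 and 4.79 in Esh9-1 arrays, against 4.52, 4.38 and 4.54 in HCC827NT arrays. The groups did not overlap, but their gap was narrow, and the rise was 0.30 ± 0.09 or 1.23-fold (adjusted p = 0.016). This call was lost without Esh9-1 replicate 2 (0.23, adjusted p = 0.057) and without HCC827NT replicate 2 (0.25, adjusted p = 0.060). In ERC4 arrays the levels were 3.60, 3.42 and 3.38, against 3.65, 3.48 and 3.66 in parental arrays, which overlapped (-0.13 ± 0.09, adjusted p = 0.27). Its mean percentile among all probe sets was 13.2 in Esh9-1 and 8.30 in HCC827NT cells.

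TCF4, an E protein that dimerizes with other bHLH factors, rose in Esh9-1 cells on 6 of its 7 probe sets. Probe set 212386_at had log2 levels of 6.95, 6.84 and 6.87 in Esh9-1 arrays, against 4.34, 4.55 and 4.59 in HCC827NT arrays, a rise of 2.40 ± 0.08 or 5.26-fold (adjusted p = 3.1e-08). Probe set 203753_at had 6.87, 6.76 and 6.66 in Esh9-1 arrays, against 5.13, 5.26 and 5.23 in HCC827NT arrays, a rise of 1.56 ± 0.07. Both were separate between the groups. The other 4 that rose did so by 1.52 ± 0.20 (213891_s_at), 1.21 ± 0.13 (222146_s_at), 1.01 ± 0.10 (212387_at) and 0.95 ± 0.15 (212382_at), with adjusted p of 0.00052 or lower. The exception was 212385_at, with 5.35, 5.00 and 5.03 in Esh9-1 arrays, against 5.15, 4.83 and 5.12 in HCC827NT arrays. Its groups overlapped (0.09 ± 0.11, adjusted p = 0.55), so the probe sets of TCF4 disagreed.

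In ERC4 cells TCF4 did not rise on any probe set, and all 7 had changes between -0.25 and -0.03. Probe set 203753_at had log2 levels of 3.72, 3.53 and 3.59 in ERC4 arrays, against 3.84, 3.91 and 3.83 in parental arrays, and was called lower at -0.25 ± 0.08 (adjusted p = 0.030). The gap was small, and the call was lost after quantile normalization (-0.15), after median centring (-0.19) and with 16 added in place of 1 (-0.12). It was also lost without ERC4 replicate 2 or 3 or parental replicate 2, at -0.21, -0.23 and -0.22. The other 6 did not pass. Without 1 array, 2 of them did: 212385_at without ERC4 replicate 1 (-0.32, adjusted p = 0.023) and 212387_at without parental replicate 2 (-0.30, adjusted p = 0.022).

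FOXC2, a forkhead factor known from vascular and mesenchymal development, fell in ERC4 cells. Probe set 214520_at had log2 levels of 4.16, 4.08 and 4.07 in ERC4 arrays, against 4.48, 4.68 and 4.62 in parental arrays, a change of -0.49 ± 0.08 (adjusted p = 0.00099). The groups were separate. In Esh9-1 arrays it had 4.84, 4.73 and 4.85, against 4.63, 4.82 and 4.71 in HCC827NT arrays, which overlapped (0.09 ± 0.07, adjusted p = 0.33).

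**Figure D2:**
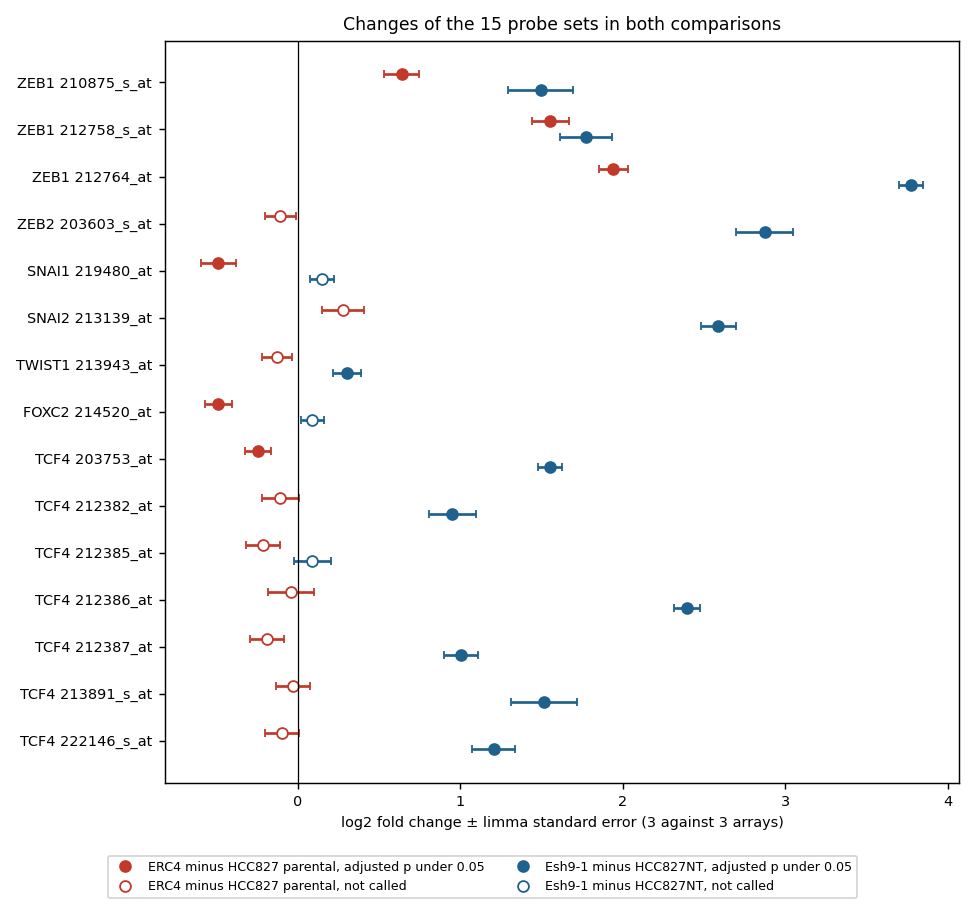
Log2 fold change with limma's standard error (horizontal axis) of the 15 probe sets in ERC4 minus HCC827 parental and in Esh9-1 minus HCC827NT, 3 arrays against 3 each. Filled points passed an adjusted p of 0.05: in ERC4 the 3 ZEB1 probe sets to the right of 0 and 3 others to the left, and in Esh9-1 12 probe sets, all to the right.

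Most members were dim. In each comparison 12 of the 15 probe sets had both group means below the median of all log2 levels. Among 10269 probe sets as dim as that in ERC4 and parental cells, 747 were called higher and 2662 lower. Among 10342 in Esh9-1 and HCC827NT cells, 1142 were called higher and 1780 lower. Olfactory receptor and eye genes, taken as a reference for low expression, gave 60 probe sets. Whether all of them are silent in these cells was not tested. Their 95th percentile lay 0.78 log2 units above the array median in parental replicate 1. Of the 60, 2 were higher and 21 lower in ERC4, with a median change of -0.18. In Esh9-1, 1 was higher and 12 were lower, with a median of -0.10. None of the 60 rose 2-fold in either comparison. The decreases of FOXC2 and TCF4 203753_at in ERC4 stand beside that background, and its part in them was not tested. SNAI1, whose parental mean lay at the median, belongs with the 11946 brighter probe sets, of which 37.7% were called higher and 23.9% lower in ERC4. ZEB1 in ERC4 lay above 83.3% of the 60 olfactory receptor and eye probe sets on 212764_at. It lay above 96.7% of them on 212758_s_at and 31.7% on 210875_s_at. In parental cells these shares were 6.67%, 45% and 1.67%. No calls of presence or absence were used here, so a low level does not show that a transcript is missing.

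The arrays of each group were separate from those of the other on 6 of the 15 probe sets in ERC4 against parental cells (58.2% of all probe sets) and on 12 of 15 in Esh9-1 against HCC827NT cells (58.8%). These were the same probe sets that were called. The difference between the 2 effects, fitted over 12 arrays, passed for 13 of 15 probe sets, against 47.4% of all. All 13 were higher in the Esh9-1 effect (23.5% of all probe sets were called in that direction, and 23.9% in the other). For ZEB2 the ERC4 effect minus the Esh9-1 effect was -2.98 ± 0.22 (adjusted p = 6.2e-08), and for SNAI2 it was -2.31 ± 0.18 (adjusted p = 1.3e-07). ZEB1 gave -1.83 ± 0.12 on 212764_at (adjusted p = 1.6e-08) but -0.22 ± 0.21 on 212758_s_at (adjusted p = 0.42). The other exception was TCF4 212385_at, at -0.30 ± 0.16 (adjusted p = 0.14). The mean SD of log2 values within an array was 1.88 in the parental and ERC4 set and 2.25 in the other, so the effects were measured on unequal spreads.

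Array controls differed between the compared groups too. The 3' minus 5' log2 signal of ACTB was 1.07 ± 0.15 in Esh9-1 and 0.20 ± 0.03 in HCC827NT cells, and 0.19 ± 0.04 in ERC4 and 0.22 ± 0.05 in parental cells (SD, n = 3 each). The first pair of groups did not overlap (exact permutation p = 0.1, two-sided, the smallest possible), and the second did (p = 0.5 by the exact test). The same measure of GAPDH was 0.30 ± 0.08 in Esh9-1 and -0.05 ± 0.02 in HCC827NT cells, and -0.08 ± 0.03 in ERC4 and 0.06 ± 0.03 in parental cells. Neither pair overlapped for GAPDH (exact permutation p = 0.1 each). The 5' probe set for 18S ribosomal RNA had log2 levels of 14.43, 12.37 and 14.41 in Esh9-1 arrays, against 5.37, 6.24 and 6.37 in HCC827NT arrays. It was lower in ERC4 arrays (mean 5.49) than in parental arrays (7.42). The 18 hybridisation controls averaged 9.48 in ERC4 and 11.04 in parental cells, and 11.92 in Esh9-1 and 11.37 in HCC827NT cells. In Esh9-1, where ZEB1, ZEB2, SNAI2 and TCF4 rose, the ACTB, GAPDH, 18S and hybridisation measures were all higher. In ERC4, where ZEB1 rose, the ACTB measure overlapped and the other measures were lower. The part of these controls in those changes was not tested.

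**Figure D3:**
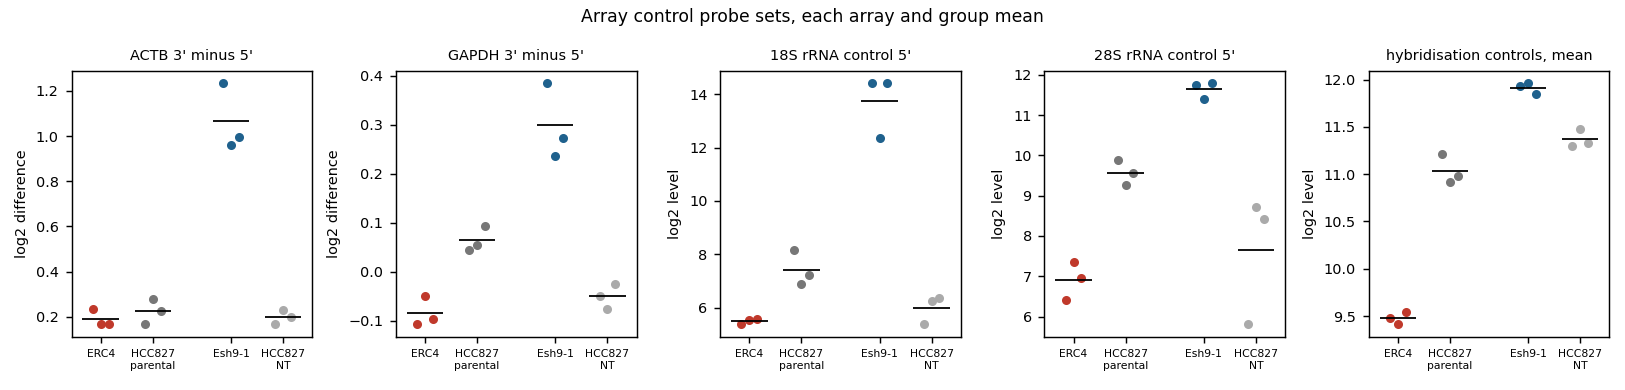
Array control measures in each array (points) with the mean of 3 arrays (line). Vertical axes give the log2 difference of 3' and 5' probe sets for ACTB and GAPDH, and the log2 level for ribosomal RNA and hybridisation controls. The ACTB difference is highest in Esh9-1 (mean 1.07), as is 18S (mean 13.74).

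Several members are also expressed by other cell types, so markers of those cells were measured. Of 14 fibroblast and smooth muscle markers, 2 (14.3%) rose and 2 (14.3%) fell in Esh9-1, beside 26.8% and 25.7% of all genes. In ERC4 1 (7.14%) rose and 7 (50%) fell, beside 25.5% and 25.2%. LUM rose by 2.56 and CNN1 by 0.55 in Esh9-1, while ACTA2 and THY1 fell by 0.43 and 0.26. The 1 that rose in ERC4 was LUM, by 0.53. COL1A1 and MYH11 were the only ones of the 14 above the array median in ERC4, Esh9-1 and HCC827NT cells. The summed intensity of the 14 was 1428 to 1520 in Esh9-1 and 1422 to 1551 in HCC827NT arrays, and 519 to 572 in ERC4 and 640 to 647 in parental arrays. Bright markers weigh most in these sums, such as COL1A1 with a log2 level of 8.97 in Esh9-1 and 9.05 in HCC827NT cells. The sums say little about dim markers such as LUM (6.78 in Esh9-1 and 4.22 in HCC827NT cells). For 12 leukocyte markers, the sum was 759 to 810 in Esh9-1 and 878 to 899 in HCC827NT arrays, and 364 to 384 in ERC4 and 426 to 499 in parental arrays. For 9 endothelial markers it was 744 to 768 in Esh9-1 and 480 to 489 in HCC827NT arrays, where ENG, which encodes a TGF-beta coreceptor, rose by 2.15. In ERC4 it was 272 to 280, and in parental arrays 353 to 407. Of 9 neuron markers, none rose and 4 (44.4%) fell in Esh9-1, with sums of 7580 to 7738, against 12302 to 13479 in HCC827NT arrays. In ERC4 none of the 9 rose and 6 (66.7%) fell, with sums of 3417 to 3731, against 4103 to 4245 in parental arrays. These sums were mostly TUBB3, a tubulin gene with a log2 level of 12.80 in Esh9-1 and 13.56 in HCC827NT cells, and of 11.71 in ERC4 and 11.93 in parental cells. They say little about the other 8 markers. Of the 60 olfactory receptor and eye probe sets, 21 were lower in ERC4 and 12 in Esh9-1. The part of that background in the decreases of dim markers was not tested. No deposited value was 0.

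Epithelial genes that are known to be lowered in EMT, several of them direct targets of these factors, fell in both lines. Lists, also chosen with earlier results of these data known, were counted by gene. Each gene stands by its probe set with the highest mean over the 6 arrays of the comparison, which can differ between the lines. Of 30 measured epithelial genes, 29 fell in ERC4 and none rose (median -1.70), and 30 fell in Esh9-1 (median -2.29). The background over all genes was 25.5% higher and 25.2% lower in ERC4 (median -0.05), and 26.8% higher and 25.7% lower in Esh9-1 (median -0.02). CLDN7, a tight junction gene, had a level of 6.19 ± 0.12 in ERC4 and 10.09 ± 0.05 in parental cells, and of 7.42 ± 0.09 in Esh9-1 and 12.26 ± 0.11 in HCC827NT cells (SD, n = 3 each). ESRP1, an epithelial splicing regulator, fell by 3.85 in ERC4. The cadherin genes CDH1 and CDH3 fell by 6.28 and 5.58 in Esh9-1.

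The RefSeq promoter windows (build GRCh38.p14, 250 bases before to 50 after the start) were searched for the E-box CAGGTG and its reverse complement CACCTG, a sequence that ZEB and SNAI proteins are known to bind. No other motif was searched. Of the epithelial genes measured, 17 had a window and 14 of them (82.35%) held a match. The share by gene was 24.07% among all 27305 genes with a window. Counted by window, 17 of 27 (62.96%) of the epithelial genes' windows held a match, against 20.59% of all 35116 windows. Several of the listed genes are known direct targets of these factors, so these shares describe the list and are no test. Of 19 mesenchymal genes with a window, 2 (10.53%) held a match, as did 3 of their 28 windows (10.71%). Only 3 of the 7 factor genes had a window in the table. ZEB1 had a match in 2 of 7 windows, ZEB2 in none of 1 and TCF4 in none of 10. Shown here are a window of ZEB1, the member that rose in both lines, and those of 3 epithelial genes that fell in both, 5' to 3' on the gene's strand, with the matches in capitals. For ZEB1 and CLDN7, which have several windows, the one with most matches was taken. A match is a stretch of letters and not evidence of binding.
ZEB1 (chr10:31318966-31319265, plus strand): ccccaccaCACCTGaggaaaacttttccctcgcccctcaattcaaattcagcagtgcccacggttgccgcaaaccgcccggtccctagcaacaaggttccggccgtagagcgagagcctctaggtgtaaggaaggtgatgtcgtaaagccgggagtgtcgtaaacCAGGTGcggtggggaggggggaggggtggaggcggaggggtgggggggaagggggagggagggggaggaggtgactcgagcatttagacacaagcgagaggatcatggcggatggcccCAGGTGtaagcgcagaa
CLDN7 (chr17:7262429-7262728, minus strand): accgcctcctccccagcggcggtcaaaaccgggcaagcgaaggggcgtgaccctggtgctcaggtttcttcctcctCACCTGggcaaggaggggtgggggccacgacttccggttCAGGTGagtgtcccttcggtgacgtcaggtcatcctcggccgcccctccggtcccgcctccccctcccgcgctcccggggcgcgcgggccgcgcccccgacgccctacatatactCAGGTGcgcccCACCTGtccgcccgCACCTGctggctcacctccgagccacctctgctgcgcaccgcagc
AP1M2 (chr19:10587263-10587562, minus strand): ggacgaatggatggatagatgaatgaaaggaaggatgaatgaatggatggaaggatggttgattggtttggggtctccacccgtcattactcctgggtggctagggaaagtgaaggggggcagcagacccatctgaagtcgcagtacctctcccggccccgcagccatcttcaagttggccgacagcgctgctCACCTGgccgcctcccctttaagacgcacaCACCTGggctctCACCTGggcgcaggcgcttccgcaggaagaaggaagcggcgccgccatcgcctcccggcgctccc
RAB25 (chr1:156060910-156061209, plus strand): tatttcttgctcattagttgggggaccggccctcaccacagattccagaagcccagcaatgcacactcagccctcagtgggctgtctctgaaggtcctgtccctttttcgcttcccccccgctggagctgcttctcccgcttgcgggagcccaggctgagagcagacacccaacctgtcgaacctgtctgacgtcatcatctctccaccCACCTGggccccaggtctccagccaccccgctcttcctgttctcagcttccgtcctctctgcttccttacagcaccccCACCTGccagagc

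The 3 epithelial genes with these windows were picked among genes that fell in both lines, so their decreases say nothing about the motif. Of the 30 epithelial genes measured, 29 fell in ERC4 and 30 in Esh9-1. CLDN7, with 5 matches, changed by -3.90 ± 0.09 in ERC4 and -4.84 ± 0.08 in Esh9-1. AP1M2, which encodes an epithelial clathrin adaptor subunit and has 3 matches, changed by -2.20 ± 0.09 in ERC4 and -2.70 ± 0.08 in Esh9-1. RAB25, a small GTPase gene of epithelial cells with 2 matches, changed by -3.09 ± 0.07 in ERC4 and -2.68 ± 0.08 in Esh9-1. All 6 changes had an adjusted p of 1.8e-07 or lower. The ZEB1 window holds 3 matches.

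Mesenchymal genes were counted next, and the difference of their counts between the lines was not tested. Of 33 measured, 6 (18.2%) rose and 13 (39.4%) fell in ERC4 (median -0.21), and 21 (63.6%) rose and 2 (6.06%) fell in Esh9-1 (median 0.88). Over all genes, 25.5% rose and 25.2% fell in ERC4, and 26.8% rose and 25.7% fell in Esh9-1. Of the 60 olfactory receptor and eye probe sets, 21 were lower in ERC4, with a median change of -0.18. The part of that background in the ERC4 decreases was not tested. In ERC4 the vimentin gene VIM rose by 3.15 and the actin-binding caldesmon gene CALD1 by 1.21, while the integrin gene ITGA5 and S100A4 fell by 0.85 and 0.57. In Esh9-1 TAGLN, encoding the actin-binding transgelin, rose by 5.67 and the matrix gene SPARC by 4.85.

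Other transcription factors linked to EMT were counted against the same background of all genes. In ERC4, 10 of 27 (37.0%) rose and 6 (22.2%) fell (median 0.02), beside 25.5% and 25.2% of all genes, with the E protein gene TCF12 up by 1.04 and the ETS gene ETV5 by 0.94. The chromatin architectural genes HMGA1 and HMGA2 fell by 0.96 and 0.95. In Esh9-1, 15 of 27 (55.6%) rose and 4 (14.8%) fell (median 0.34), beside 26.8% and 25.7% of all genes. GATA6 rose there by 2.21 and SOX9 by 1.20, while SOX4 and ETV4 fell by 1.81 and 0.54. Of factors linked to epithelial identity, 8 of 16 fell and 2 rose in ERC4 (median -0.34), and 11 fell and 2 rose in Esh9-1 (median -0.67). The ETS gene EHF fell by 2.66 in ERC4 and fell by 3.78 in Esh9-1. OVOL2, a repressor of ZEB1 transcription, fell by 1.78 in ERC4 and fell by 3.17 in Esh9-1. The 2 that rose were TFAP2A (0.39) and NKX2-1 (0.37) in ERC4, and TFAP2C (0.35) and HOXB7 (0.47) in Esh9-1.

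The factors repress through partner proteins. Of 21 corepressor and chromatin partner genes, 11 (52.4%) rose and 5 (23.8%) fell in ERC4 (median 0.37), beside 25.5% and 25.2% of all genes. Most of these genes were bright, and of the 11946 brighter probe sets 37.7% were called higher and 23.9% lower in ERC4. The deacetylase gene SIRT1 rose by 1.63 and the Polycomb gene EED by 1.09, while the methyltransferase gene EHMT2 and the corepressor CTBP2 fell by 0.64 and 0.23. In Esh9-1, 6 (28.6%) rose and 7 (33.3%) fell (median -0.02), beside 26.8% and 25.7% of all genes. There LOXL2, a lysyl oxidase-like protein that binds SNAI1, rose by 3.03 and SIRT1 by 0.84. DNMT3A and EHMT2 fell by 0.64 and 0.43. CTBP1, the corepressor that ZEB proteins recruit, did not pass in either line, at 0.03 ± 0.08 in ERC4 and -0.14 ± 0.06 in Esh9-1.

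Genes of bHLH partners and of ID proteins, which block bHLH dimers, made up a list of 13 measured. In ERC4, 3 (23.1%) rose and 5 (38.5%) fell (median -0.15), beside 25.5% and 25.2% of all genes. In Esh9-1, 4 (30.8%) rose and 6 (46.2%) fell (median -0.19), beside 26.8% and 25.7%. ID1 fell by 1.64 in ERC4, to 9.51 ± 0.05 against 11.14 ± 0.06 in parental cells, and fell by 2.03 in Esh9-1, to 10.56 ± 0.05 against 12.59 ± 0.03 in HCC827NT cells (SD, n = 3 each). The E protein gene TCF12 rose by 1.04 in ERC4 and by 0.79 in Esh9-1. TCF3, a further E protein gene, had 0.20 ± 0.10 in ERC4 (adjusted p = 0.13) and -0.29 ± 0.08 in Esh9-1 (adjusted p = 0.015). ID2 rose by 0.91 in Esh9-1, and BHLHE40 rose by 0.42 in ERC4 but fell by 1.07 in Esh9-1. HES1 fell by 0.73 in ERC4.

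SNAI and TWIST proteins are also controlled by degradation, which transcript arrays do not see. Of 19 genes for that turnover, 4 (21.1%) rose and 4 (21.1%) fell in ERC4 (median -0.01), beside 25.5% and 25.2% of all genes. In Esh9-1, 7 (36.8%) rose and 6 (31.6%) fell (median -0.01), beside 26.8% and 25.7%. The deubiquitinase gene USP9X rose by 0.99 in ERC4 and 0.54 in Esh9-1, and the signalosome gene COPS2 by 0.67 in ERC4 and 0.60 in Esh9-1. The ubiquitin ligase genes FBXW7 and STUB1 fell by 0.65 and 0.55 in ERC4, and AKT1 and the phosphatase gene CTDSP2 fell by 0.81 and 0.49 in Esh9-1.

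Signals known to induce these factors were also counted. In ERC4, 12 of 34 (35.3%) rose and 13 (38.2%) fell (median -0.11), beside 25.5% and 25.2% of all genes. In Esh9-1, 19 (55.9%) rose and 6 (17.6%) fell (median 0.25), beside 26.8% and 25.7%. The cytokine gene IL6 rose by 1.45 in ERC4 and 2.91 in Esh9-1, and TGFB2 rose by 1.36 in ERC4 and 2.24 in Esh9-1. TGFB1 fell by 0.62 in ERC4 and rose by 2.41 in Esh9-1 (adjusted p = 6.4e-08). The Esh9-1 values of both TGFB genes are given beyond the naming rule, after they were seen. BMP7 fell by 0.86 in ERC4. INHBA, which encodes a subunit of activins, rose by 2.61 in Esh9-1, while STAT3 fell by 0.66 there. EGFR, a member of this list and the target of the shRNA, fell by 1.30 in Esh9-1 on the probe set that stands for it here.

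**Figure D4:**
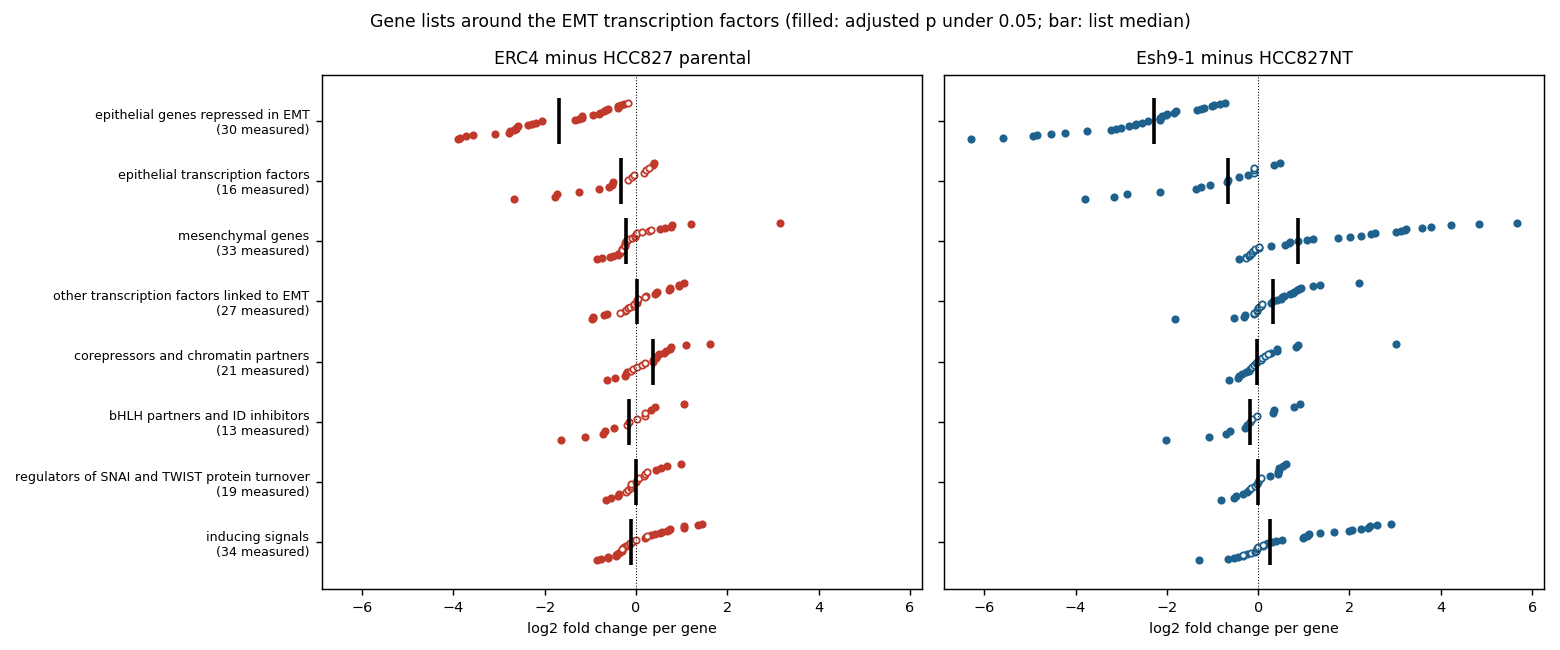
Log2 fold change per gene (horizontal axis) of the lists of targets, partners and inducers, in ERC4 minus HCC827 parental and in Esh9-1 minus HCC827NT. Each point is a gene, filled where the adjusted p was under 0.05, and each bar is the list median. Epithelial genes lie left of 0 in both (medians -1.70 and -2.29), and mesenchymal genes lie to the right in Esh9-1 (median 0.88) but not in ERC4 (median -0.21).

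Genes whose pattern lay nearest to a member were found by the distance of log2 levels, centred within each set of 6, over 12 arrays. Nearest to ZEB1 (212758_s_at) were TNFRSF9, SERPINE2, ZMIZ1 and NRG1, at distances of 0.69 to 0.75 log2 units. They rose by 1.32, 1.59, 1.33 and 1.68 in ERC4 and by 1.99, 1.73, 1.72 and 1.90 in Esh9-1. Nearest to ZEB2 were COL6A2, FOXD1, DKK1 and PID1, at 0.76 to 0.83, with changes of 3.13, 2.82, 2.62 and 2.74 in Esh9-1. SNAI2 lay nearest to GBP2, AKAP12, PID1 and LUM, at 0.53 to 0.59, so PID1 was near both. For TCF4 (212387_at) they were CAPRIN2, CBR4, PLAG1 and SUSD5, at 0.36 to 0.42. These distances describe 12 arrays that share groups, and no test was made of them.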

How the data were processed

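Transcripts were measured on 12 Affymetrix expression arrays of 4 groups of 3, assigned from the sample titles. The deposited values are intensities on a linear scale. They were made by the authors with RMA, per the submitters' processing notes. The RMA version is not given in the sources used here, nor are the arrays that entered each RMA run. The values of 22277 probe sets were transformed as log2(value + 1), which understates changes of dim probe sets. The 62 control probe sets were left out, and 22215 were tested. Names came from the platform annotation, in which 19070 probe sets have 1 symbol, 1043 several and 2164 none.

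Each comparison was fitted within its own set of 6 arrays by lmFit and eBayes of limma 3.58.1, run in R 4.3.3, with 4 residual degrees of freedom. The difference of effects was fitted over 12 arrays (8 residual degrees of freedom). P-values are two-sided and were Benjamini-Hochberg adjusted over all 22215 probe sets, at a threshold of 0.05. Control measures were compared by an exact permutation test, which cannot give less than 0.1 with 3 arrays against 3. The number of arrays limits the precision. Procedures were tested on simulated data.

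The 7 members and all gene lists were chosen with earlier results of these data known. Of each list, up to 4 genes per comparison are named. These are the 2 largest increases and 2 largest decreases among called genes without overlap with a higher mean at or over the median log2 value of the 6 arrays. Corepressor and bHLH genes may be named whether called or not. AP1M2 and RAB25 in both comparisons, and CLDN7 in Esh9-1, are given beyond this rule. For the likeness of patterns, 4 genes per member were taken. Same-numbered arrays did not deviate together (correlations of 0.02, 0.07 and 0.01 for ERC4 and parental, and -0.14, -0.03 and -0.11 for Esh9-1 and HCC827NT), so they were not treated as pairs. Alternatives covered the model, normalization, pseudocount, a filter on dim probe sets, the threshold, a replicate block and leaving out each array. Promoter windows came from RefSeq (GRCh38.p14). Figures were drawn with matplotlib 3.10.9 in Python 3.11.15.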

Additional observations from a re-analysis of the deposited data

Results flagged for a closer look

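For 13 of the 15 probe sets the effect in ERC4 (against parental cells) differed from the effect in Esh9-1 (against HCC827NT) in limma's test of the difference over 12 arrays. All differences are the ERC4 effect minus the Esh9-1 effect on the log2 scale, and all 13 were negative. They were -2.98 for ZEB2, -2.31 for SNAI2, -0.64 for SNAI1, -0.43 for TWIST1 and -0.58 for FOXC2. ZEB1 gave -0.86 on 210875_s_at and -1.83 on 212764_at, but its probe set 212758_s_at did not pass (-0.22, adjusted p = 0.42) and turned to 0.33 after quantile normalization over 12 arrays. The same setting ended the calls for ZEB1 210875_s_at (-0.45) and TWIST1 (-0.33). TCF4 gave -1.80 on 203753_at, -1.06 on 212382_at, -2.44 on 212386_at, -1.19 on 212387_at, -1.55 on 213891_s_at and -1.30 on 222146_s_at. For SNAI1 and FOXC2 the difference came with a call in ERC4 and none in Esh9-1.

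Of the 6 ribosomal RNA control probe sets of the array, which are not part of the gene comparisons, 5 were higher in all 3 Esh9-1 arrays than in the HCC827NT arrays. The log2 difference was 7.75 for the 5', 5.02 for the middle and 3.58 for the 3' probe set of 18S, and 4.00 for the 5' and 1.63 for the middle probe set of 28S. The 3' probe set of 28S overlapped between the groups (difference -0.053, exact permutation p = 0.7). Each of the 5 gave an exact permutation p of 0.1, two-sided, the smallest possible with 3 arrays against 3. In ERC4 arrays all 6 were lower than in parental arrays without overlap, with differences from -2.81 (3' of 18S) to -0.33 (3' of 28S). The part of these controls in the changes of ZEB1, ZEB2, SNAI2 and TCF4 was not tested.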

How the results depend on the processing

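The number of called probe sets was 6 in ERC4, 12 in Esh9-1 and 13 for the difference of effects. With the replicate number as a block these counts were again 6, 12 and 13. Leaving out an array gave 5 to 7, 11 to 12 and 13 to 14. The filter on dim probe sets left 3 members in each line by construction, of which 3 were called in ERC4 and 3 in Esh9-1, beside 65.2% and 73.8% of all probe sets it left. Both ZEB1 probe sets, and SNAI2 in Esh9-1, passed the filter only through the group where they are high, so these counts support nothing. Of the log2 fold changes, the called ones kept their direction under every alternative run. Signs turned only for changes that were not called. In ERC4, TCF4 212386_at was 0.00078 with array weights, 0.060 after quantile normalization of the set and 0.018 after median centring, and -0.20 to 0.11 when an array was left out. TCF4 213891_s_at was 0.068 after that quantile normalization, 0.030 after centring and -0.12 to 0.029 without an array. TCF4 222146_s_at was 0.011 after quantile normalization and -0.16 to 0.018 without an array, and 212382_at was -0.17 to 0.0049. In Esh9-1, TCF4 212385_at was -0.018 to 0.15 without an array. The difference of effects for ZEB1 212758_s_at was 0.086 with the ERC4 and parental set stretched to the spread of the other, and 0.33 after quantile normalization over 12 arrays. The cause of these turns was not tested. That setting also ended the calls of the difference for ZEB1 210875_s_at (-0.45) and TWIST1 (-0.33), and at an adjusted p of 0.01 TWIST1 in Esh9-1 and TCF4 203753_at in ERC4 were not called. Over all probe sets, 48.7% of calls in ERC4 were higher, against 58.9% after median centring and 60.8% without dim probe sets. The low signal of TWIST1 and FOXC2 limits what their small changes can show.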
